A study of Mus musculus with 4 samples.

Results

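Spinous keratinocytes are the cells of the epidermis just above the basal layer that have switched to the keratin pair Krt1 and Krt10. Here they were the barcodes, or cells, in which UMIs of Krt1 and Krt10 together made up at least 100 of every 10000 UMIs, a UMI being a molecular identifier that counts each captured RNA molecule once. Barcodes entered only if they showed 2000 genes or more and less than 10% of UMIs from mitochondrial genes. The rule found 681 and 401 cells in the 2 Ctrl libraries and 136 and 326 cells in the 2 TKO libraries, 1544 of the 11221 barcodes kept from 19789. The cells were chosen by their Krt1 and Krt10 levels, so these values are given as a description with no test.

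The libraries came from dorsal skin of mouse embryos, E16.5 per the labels, sorted for the epithelial protein Epcam and for α6 integrin, and are labelled as basal epithelial cells. The study's own list of litters gives an earlier day for its single-cell litter and calls the knockout there mosaic. All embryos carried floxed Suv39h1 (Suv39h1 f/f), a constitutive Suv39h2 deletion (Suv39h2-/-) and floxed Setdb1 (Setdb1 f/f), and all were exposed to tamoxifen. The Ctrl embryos were K14CreERT2- and the TKO (triple knockout) embryos K14CreERT2+. The Krt14 promoter drives this Cre in basal keratinocytes, so a spinous cell inherits whatever recombination its basal ancestor had. Ctrl embryos lack Suv39h2 too, so the comparison concerns the loss of Suv39h1 and Setdb1 on that background. Cre itself was present in TKO embryos only, so its effect cannot be told apart from that loss. Each library was 1 embryo per the study's methods, and cells of a library were summed before any test.

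Basal keratinocytes that leave the basement membrane stop dividing for the most part, lower Krt5 and Krt14, and build Krt1 and Krt10 filaments anchored in desmosomes. Notch signalling and transcription factors such as Klf4 and Grhl3 drive this step, and granular cells later add loricrin, filaggrin and the small proline-rich proteins that are crosslinked into the cornified envelope. Suv39h1, Suv39h2 and Setdb1 are methyltransferases that put H3K9me3 on histones of heterochromatin.

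The 4 libraries held 70749496 to 89655247 UMIs each, and the spinous cells 5418120 to 21859242 UMIs. Median depth was 30135 and 23595 UMIs per spinous cell in Ctrl and 38633 and 35560.5 in TKO, so shares of cells with a UMI are given after thinning each cell to 5000 UMIs. Pairs of libraries shared 2 to 12 barcodes. Levels are CPM, UMIs per 1000000 UMIs of the summed spinous cells of a library, and are compared between libraries, not between genes. Of the targeted genes, Setdb1 had 49.7 and 50.3 CPM in the Ctrl libraries and 29.5 and 35.7 CPM in the TKO libraries (log2 fold change of −0.65 ± 0.14 SE with an adjusted p = 0.0664 in edgeR), lower in both TKO libraries but not called. Suv39h1 had 9.74 and 9.46 CPM in the Ctrl libraries and 10.2 and 7.61 CPM in the TKO libraries and Suv39h2, deleted in both groups, 8.14 and 9.26 CPM against 8.12 and 7.01 CPM. Reads from transcript 3′ ends leave the state of a floxed exon unseen. Xist had at most 2 UMIs per library in spinous cells and Y-linked Ddx3y 84.8 to 94.1 CPM. All 4 libraries thus looked male, and the 2 genotypes did not differ in sex. The study's methods state that its sequencing groups each held both sexes, which these values do not bear out.

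The marker genes bore out the label. Dsc1, a desmosomal cadherin of suprabasal layers, rose from 0.446 to 1.75 CPM in basal cells to 120.4 to 278 CPM in spinous cells. Calm4, a calmodulin-like protein of differentiating epidermis, rose from 24.3 to 112 CPM to 2666 to 4030.4 CPM. Serpinb12, a protease inhibitor, rose from 0.21 to 2.03 CPM to 218 to 422 CPM, and all 4 libraries showed each rise. Basal cells are keratinocytes with under 20 Krt1 plus Krt10 UMIs and at least 50 Krt5 plus Krt14 UMIs per 10000, and numbered 5743. Because the cells were split by keratins, these differences describe the split. Terminal markers were low: Flg had 0.457, 3.45, 0 and 3.42 CPM and Krt2 2.15, 2.76, 2.58 and 5.73 CPM in the 4 libraries. The sort was for α6 integrin, a basal protein, and its gene Itga6 was at 43.7 to 81.9 CPM in spinous against 387 to 505 CPM in basal cells. The spinous cells here are therefore the ones that passed a basal gate, not the whole layer. Basal keratins persisted in part of them: 17.6% and 29.9% of Ctrl and 14.0% and 28.2% of TKO spinous cells had at least 50 Krt5 plus Krt14 UMIs per 10000.

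Around the limit, cells just inside (100 to 120 per 10000) numbered 21 and 13 in Ctrl and 7 and 7 in TKO, with median Krt1 plus Krt10 of 109 and 112 per 10000 in Ctrl and 109 and 112 in TKO. Cells just outside (80 to 100) numbered 23 and 20 in Ctrl and 11 and 12 in TKO, with medians of 93.2 and 87.4 in Ctrl and 94.6 and 96.1 in TKO. Few cells lay at the limit in any library. In cells with 3 or more immune markers, which should lack both keratins, median Krt1 plus Krt10 was 1.56 and 0.885 per 10000 in Ctrl and 0 and 0.486 in TKO. Of these immune-marker cells 3 of 91, 0 of 133, 1 of 314 and 1 of 438 passed the limit.

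**Figure D1:**
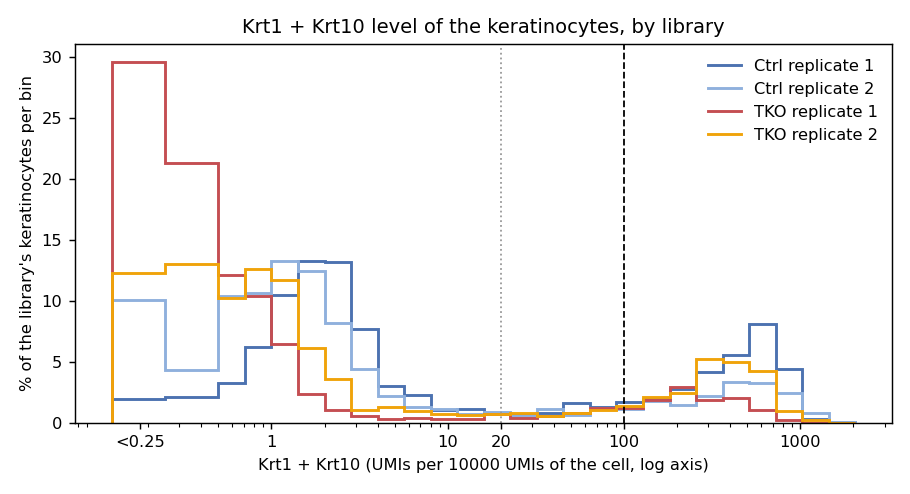
Share of each library's keratinocytes by Krt1 plus Krt10 UMIs per 10000 UMIs of the cell (log axis), 1 line per library, with the limits at 20 (dotted) and 100 (dashed). A low and a high group are separated by a sparse stretch, and the high group reaches further in both Ctrl libraries than in TKO replicate 1.

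Of the Ctrl keratinocytes, 28.6% (26.8 to 30.5, the 95% interval of Clopper and Pearson) and 16.2% (14.8 to 17.7) were spinous. Of the TKO keratinocytes, 10.7% (9.01 to 12.5) and 21.1% (19.1 to 23.3) were. The groups overlapped, with means of 22.4% ± 8.78 and 15.9% ± 7.42 (SD, n = 2), and intervals cover counting error only. The difference of −6.51 percentage points lay within the spread. It came to −0.30 when Ctrl replicate 1 was left out and to −12.7 when Ctrl replicate 2 was, and to −1.26 or −11.8 with the first or the second TKO library omitted. Within the spinous range the TKO cells sat lower. Cells with at least 400 Krt1 plus Krt10 UMIs per 10000 were 60.1% and 56.1% of Ctrl spinous cells but 23.5% and 44.5% of TKO spinous cells. Median Krt1 plus Krt10 was 475 and 456 per 10000 in Ctrl and 252 and 358 in TKO. Krt1 had 24692 and 24105 CPM in the Ctrl libraries and 13736 and 19813 CPM in the TKO libraries, and Krt10 had 25036 and 26204 CPM in the Ctrl libraries and 15658 and 20011 CPM in the TKO libraries, lower in both TKO libraries for each gene. These shifts describe values the rule used and were not tested.

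Between the genotypes, the spinous cells of TKO embryos carried the stress keratins Krt6a and Krt6b, the small proline-rich proteins Sprr1a and Sprr1b and the transcription cofactor Hopx at far higher levels, and less Krt15, Pou3f1 and Col17a1. edgeR's quasi-likelihood test on the summed counts called 302 raised genes, 2.17% of the 13935 tested, and 178 lowered genes, 1.28%, at a Benjamini-Hochberg adjusted p under 0.05. The alternative tool, DESeq2, gave 743 calls, 5.33%. All 480 edgeR calls, 3.44% of genes tested, had libraries that did not overlap between the genotypes, as 30.1% of tested genes did with TKO higher and 21.4% with TKO lower. An unadjusted p under 0.05 was found for 19.2% of tested genes. The raised genes changed more: 124 rose at least 8-fold and 10 fell as much, with median log2 changes of 2.48 and −1.15 beside 0.00 over all genes tested. Of the raised genes, 110 stayed under 1 CPM in both Ctrl libraries.

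These counts rested on few libraries. Calls numbered 95 and 36 without Ctrl replicate 1 and 122 and 46 without Ctrl replicate 2, but 721 and 578 without TKO replicate 1 and 736 and 539 without TKO replicate 2. A genotype left with 1 library was assumed to vary like the other. Fewer cells of a kind and less RNA per cell cannot be told apart in such sums. Markers of other cell types moved with the genotype as well. Immune markers summed to 24.8 and 33.3 CPM in Ctrl spinous cells and to 80.5 and 92.7 CPM in TKO. Of 9 tested members edgeR called C1qb, Fcer1g and Tyrobp as raised, beside 2.17% of all genes, and DESeq2 called 4, beside 5.33%. Both TKO libraries were higher for 8 of the 9, beside 30.1% of all genes. The Fcer1g call was lost with top doublet scores or other lineages left out, in cells of 100 to 300 Krt1 plus Krt10 UMIs per 10000, at a Krt1 plus Krt10 limit of 200 in place of 100, and at 5000 UMIs per cell. The C1qb call was lost in that 100 to 300 range, and the Tyrobp call there, at a limit of 50, without cells high in Krt5 and Krt14 and without either Ctrl library. Melanocyte markers summed to 5.76 and 5.42 CPM in Ctrl and to 88.8 and 10.9 CPM in TKO, and fibroblast markers to 238 to 369 CPM in all. With every cell left out that carried 3 or more markers of such a lineage, 247 genes were raised and 148 lowered. The part of the remaining marker RNA in the other calls was not tested.

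The 10 largest rises by fitted log2 change were mostly of genes almost silent in Ctrl. Col28a1, a collagen chain gene at chr6:7997102-8192617 (GRCm39), had 0.137 and 0.0986 CPM in the Ctrl libraries and 221 and 363 CPM in the TKO libraries (log2 fold change of 11.03 ± 0.45 SE with an adjusted p = 0.00111 in edgeR). The long noncoding RNA 1700030N03Rik (chr19:3103071-3255592) had 0.0915 and 0 CPM in the Ctrl libraries and 179 and 70.7 CPM in the TKO libraries. With 2 Ctrl UMIs in all, its TKO to Ctrl ratio was 1681 (95% counting interval 465 to 13891), which covers counting error only. Both TKO libraries stood high and both Ctrl libraries near 0 for all 10. Gria3, an AMPA-type glutamate receptor subunit, had 0 and 0.0986 CPM in the Ctrl libraries and 34.1 and 16.3 CPM in the TKO libraries, a ratio of 703 (95% counting interval 125 to 27841). Gm11884, another noncoding RNA, had 0 and 0.197 CPM in the Ctrl libraries and 43 and 90.3 CPM in the TKO libraries (edgeR adjusted p = 0.00498) and Gm42653, a gene model still to be verified, 0.137 and 0.197 CPM in the Ctrl libraries and 161 and 77.6 CPM in the TKO libraries (edgeR adjusted p = 0.0039). The next 4 had no UMI in either Ctrl library. Against a floor of 3 UMIs over the Ctrl group, Ddit4l, an inhibitor of mTOR signalling, was at least 79.2-fold higher (12.9 and 4.87 CPM in TKO). The noncoding RNAs Gm48521 and Gm36551 were at least 73.5-fold and 65.4-fold higher. Fut9, a fucosyltransferase, was at least 44.3-fold higher, with edgeR adjusted p = 0.0204. The 5 richest cells held 78.1% and 69.2% of the TKO UMIs of Fut9. Its TKO level was 5.91 and 3.33 CPM with them and 1.33 and 1.04 CPM without. The remaining member of the 10, Krt6a, belongs to the keratins described next. All 10 kept their call under every alternative that gave them a value, 16 to 18 for each gene. A difference of the genotype effect from that in basal cells, tested below, was called for none of the 10.

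The 10 largest falls were weaker and sparser. Grik4, a kainate-type glutamate receptor subunit, had 25.3 and 24.5 CPM in the Ctrl libraries and 1.48 and 2.56 CPM in the TKO libraries (log2 fold change of −3.57 ± 0.26 SE with an adjusted p = 0.0047 in edgeR), and was the only one of the 10 whose call no alternative ended. Krt79, a keratin of the follicle opening and sebaceous duct, had 36 and 12 CPM in the Ctrl libraries and 0.554 and 1.45 CPM in the TKO libraries (log2 fold change of −4.47 ± 0.71 SE with an adjusted p = 0.0336 in edgeR). Its Ctrl UMIs lay in few cells: the 5 richest of 681 held 91.1% in replicate 1 and the 5 richest of 401 held 95.1% in replicate 2. The call was lost at a Krt1 plus Krt10 limit of 200 and without cells high in Krt5 and Krt14. The other 8 were at most 3.94 CPM in any library. Among them, Fam167a had 30 and 27 UMIs in Ctrl and 0 and 1 UMIs in TKO, a Ctrl to TKO ratio of 30.5 (95% counting interval 5.26 to 1225). Slc47a1, an organic cation exporter, had 48 and 20 UMIs in Ctrl and 0 and 2 UMIs in TKO, a ratio of 18.2 (95% counting interval 4.84 to 153). Mmp28, an epidermal metalloproteinase, had 49 and 32 UMIs in Ctrl and 2 and 1 UMIs in TKO, a ratio of 14.4 (95% counting interval 4.77 to 71.5). Serpina3j, Gm42884, Dscaml1, D930019O06Rik and Lgi2 completed the group, with edgeR adjusted p from 0.0311 to 0.0481. Each of these 8 lost its call under 5 to 8 of the alternatives, among them the removal of single libraries.

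Keratins of stressed and wounded epidermis stood out. Krt6a (chr15:101598345-101602742) had 0.183 and 0.296 CPM in the Ctrl libraries and 186 and 293 CPM in the TKO libraries (log2 fold change of 9.98 ± 0.40 SE with an adjusted p = 0.00111 in edgeR). Krt6b, its neighbour (chr15:101584458-101588722), had 0.732 and 0.296 CPM in the Ctrl libraries and 67.4 and 239.7 CPM in the TKO libraries (log2 fold change of 7.98 ± 0.85 SE with an adjusted p = 0.0127 in edgeR). Both were close to absent in Ctrl spinous cells and present in both TKO libraries; the 2 genes are near copies, so the split of reads between them is uncertain. Krt17 had 42.8 and 68.2 CPM in the Ctrl libraries and 157 and 199 CPM in the TKO libraries (log2 fold change of 1.65 ± 0.23 SE with an adjusted p = 0.027 in edgeR), a call lost without Ctrl replicate 1 (edgeR adjusted p = 0.065). Krt16, the usual partner of Krt6, had 29.4 and 94.3 CPM in the Ctrl libraries and 119 and 1230.2 CPM in the TKO libraries, again higher in both TKO libraries but far apart between them and not called (log2 fold change of 3.43 ± 1.09 SE with an adjusted p = 0.166 in edgeR). Of 12 keratins in this list, 5 were tested. Among these edgeR called 3 as raised, beside 2.17% of all genes, and none as lowered, and DESeq2 called 4, beside 5.33%. The other 7, including Krt8 and Krt18 of simple epithelia, had too few UMIs to test, at most 20 in any library.

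The rise of Krt6a was carried by a minority of cells. At 5000 UMIs, 0% and 0% of Ctrl cells and 9.56% and 19.6% of TKO cells had a Krt6a UMI, against 0%, 0%, 0% and 0.232% of the immune-marker cells. In TKO replicate 1 the 5 richest of 136 cells held 86.9% of its UMIs, and without them the level was 25.2 CPM. In TKO replicate 2 the 5 richest of 326 cells held 37.2%, and the level without them was 187 CPM. Krt6b was still more concentrated in TKO replicate 1, where 5 cells held 96.7% of its UMIs and the level without them was 2.32 CPM. In TKO replicate 2 they held 35.8%, with 157 CPM in the rest. For Krt16 the 5 richest cells held 68.6% of the UMIs in TKO replicate 1 and 21.5% in TKO replicate 2. With the 5 richest cells of each library left out, Krt16 had 18.9 and 49.8 CPM in Ctrl and 39.1 and 989 CPM in TKO. The genotypes then overlapped. Krt17 was spread more widely, with 8.08% and 10.3% of Ctrl cells and 22.8% and 30.4% of TKO cells.

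Genes of early differentiation went both ways. Krtdap, a secreted peptide of differentiating keratinocytes, had 3455 and 3163 CPM in the Ctrl libraries and 3156 and 3195 CPM in the TKO libraries, and Ly6d 8131 and 7745 CPM against 6262 and 8759 CPM. Of the 24 members tested edgeR called 2 as raised and 2 as lowered, beside 2.17% and 1.28% of all genes, with a median log2 change of 0.12. The genotypes did not overlap for 16 members, 10 of them higher and 6 lower in TKO, beside 30.1% and 21.4% of all genes. At an unadjusted edgeR p under 0.05 there were 11, beside 19.2% of all genes, and DESeq2 called 6, beside 5.33%. Calml3, a calmodulin-like protein, fell from 122 and 72.5 CPM in Ctrl to 20.5 and 14.5 CPM in TKO (log2 fold change of −2.56 ± 0.30 SE with an adjusted p = 0.0169 in edgeR). Dapl1, named for early epithelial differentiation, fell from 41.2 and 35.7 CPM to 17.9 and 11.2 CPM (log2 fold change of −1.49 ± 0.23 SE with an adjusted p = 0.0329 in edgeR). Both calls depended on the Krt1 plus Krt10 range: in cells of 100 to 300 per 10000 alone the changes were 0.50 (edgeR adjusted p = 0.61) and 1.73 (edgeR adjusted p = 0.334), of the opposite sign. The Dapl1 call was also lost at a limit of 200 and without Ctrl replicate 1. Lypd5, a Ly6-family surface protein, rose from 3.66 and 0.591 CPM to 28.2 and 20.7 CPM (log2 fold change of 3.28 ± 0.60 SE with an adjusted p = 0.0446 in edgeR). The 5 richest cells held 69.3% and 48.3% of its TKO UMIs, and the TKO levels without them were 9.18 and 10.9 CPM. The Lypd5 call was lost with top doublet scores left out and at a limit of 50.

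Crct1, a small cysteine-rich protein of cornifying cells, had 1 UMI in Ctrl and 12 and 17.4 CPM in TKO (edgeR adjusted p = 0.00413). Its ratio was 503 (95% counting interval 89.5 to 19939), but all its TKO UMIs came from 3 and 5 cells, a single one of which held 187 of the 204 in replicate 2, and the call was lost at a limit of 200. Of the given markers, Serpinb12 fell from 422 and 375 CPM to 218 and 254 CPM (log2 fold change of −0.80 ± 0.13 SE with an adjusted p = 0.0361 in edgeR). In the 100 to 300 range its change was −0.18 (edgeR adjusted p = 0.539), and Calm4, at 4030.4 and 3123 CPM against 2666 and 2674 CPM and not called in the whole range, was raised there (0.96, edgeR adjusted p = 0.0486). Dsc1, with 166 and 120.4 CPM against 165 and 278 CPM, overlapped between the genotypes. The Serpinb12 call was lost without either Ctrl library, without cells high in Krt5 and Krt14, at 5000 UMIs per cell and at a limit of 50.

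**Figure D2:**
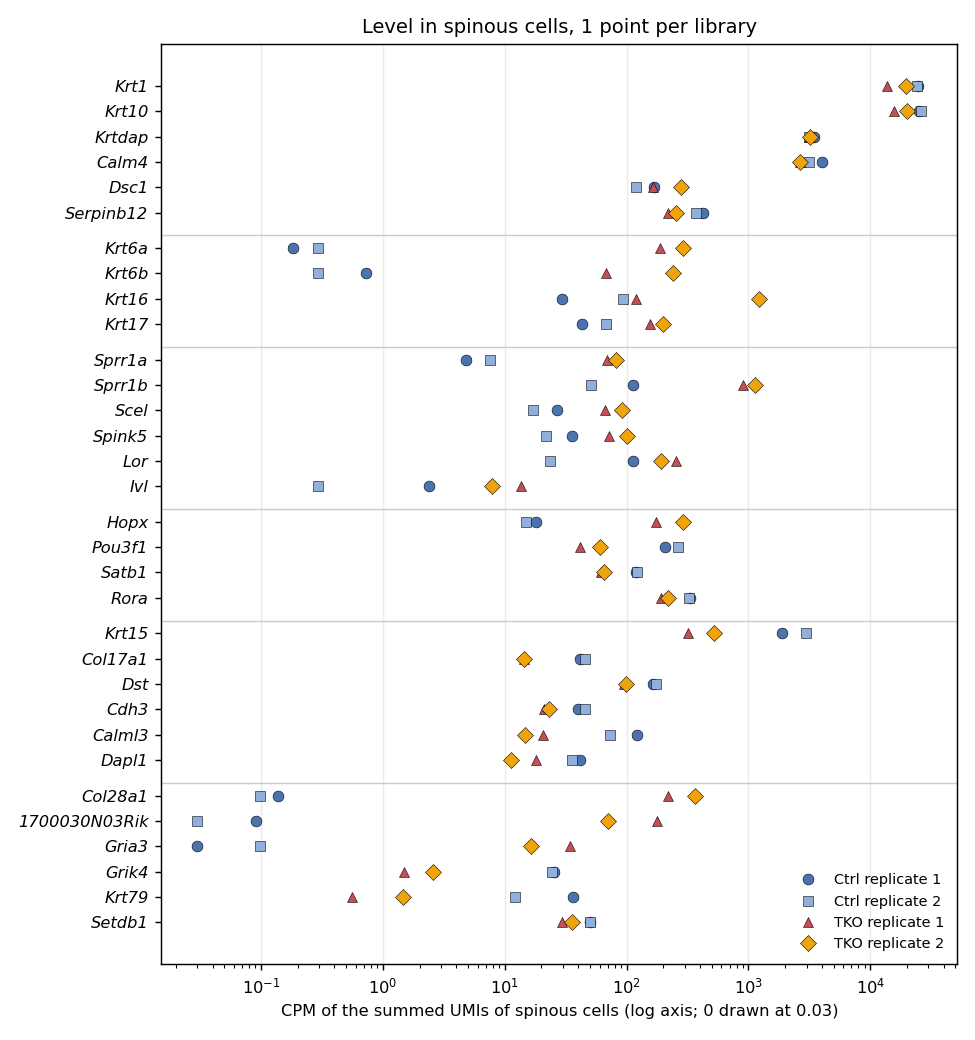
CPM of the summed UMIs of spinous cells (log axis, 0 drawn at 0.03) for 32 genes, 1 point per library. The 4 points of Krtdap coincide, those of Krt6a, Hopx and Sprr1b separate with TKO to the right, and those of Krt15, Pou3f1 and Grik4 with TKO to the left.

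Genes of the granular layer and cornified envelope were raised in part. Of 56 in the list 33 had too few UMIs to test, among them all late cornified envelope (Lce) genes listed, most of them at 0. Of the 23 tested, edgeR called 7 as raised and 0 as lowered, beside 2.17% and 1.28% of all genes, with a median log2 change of 0.55. Both TKO libraries were higher for 14, beside 30.1% of all genes, and DESeq2 called 8, beside 5.33%. The small proline-rich proteins, which crosslink the envelope, made up 5 of the 7. Sprr1a had 4.85 and 7.59 CPM in the Ctrl libraries and 69.4 and 82.1 CPM in the TKO libraries (log2 fold change of 3.61 ± 0.23 SE with an adjusted p = 0.0039 in edgeR). Its 5 richest cells held 52.9% and 62.5% of the TKO UMIs, 1 cell of replicate 2 alone 526 of 960, and without them the level was 34 and 31.3 CPM in TKO and 3.92 and 3.89 CPM in Ctrl. Sprr1b had 113 and 50.7 CPM in the Ctrl libraries and 910.5 and 1142 CPM in the TKO libraries (log2 fold change of 3.58 ± 0.40 SE with an adjusted p = 0.0141 in edgeR), and 19.7% and 12.8% of Ctrl cells and 43.4% and 68.7% of TKO cells had a UMI of it at 5000 UMIs. Neither Sprr1 call was ended by any alternative. Sprr2h had 0.274 and 0.197 CPM in the Ctrl libraries and 7.38 and 16.2 CPM in the TKO libraries (log2 fold change of 5.50 ± 0.56 SE with an adjusted p = 0.0117 in edgeR), with 2.94 and 6.44 CPM in TKO outside its 5 richest cells. Sprr2d had 3 UMIs in Ctrl and 3.32 and 3.33 CPM in TKO, and in TKO replicate 1 all 18 of its UMIs came from 1 cell. Sprr2k had none in Ctrl and was at least 11.2-fold higher. Both of these calls were lost without either Ctrl library, and that of Sprr2k also with top doublet scores or cells high in Krt5 and Krt14 left out. Sprr2 genes are near copies of one another, so reads may be split unevenly among them.

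Scel, which encodes the envelope precursor sciellin, rose from 26.9 and 17.1 CPM to 65.9 and 92.5 CPM (log2 fold change of 1.79 ± 0.27 SE with an adjusted p = 0.0299 in edgeR). Spink5, the protease inhibitor LEKTI, rose from 35.4 and 22 CPM to 71.4 and 101 CPM (log2 fold change of 1.53 ± 0.27 SE with an adjusted p = 0.0436 in edgeR). The calls of Scel and Spink5 were lost without Ctrl replicate 2, and that of Spink5 also at limits of 50 and 200 and with top doublet scores or cells high in Krt5 and Krt14 left out. The main envelope proteins were less even. Lor, loricrin, had 114 and 23.7 CPM in the Ctrl libraries and 255 and 193 CPM in the TKO libraries and was not called (log2 fold change of 1.62 ± 0.64 SE with an adjusted p = 0.245 in edgeR), and the 5 richest cells held 86.7% and 88.5% of its UMIs in TKO and 71.7% in Ctrl replicate 1. Without those cells Lor stood at 32.6 and 16.1 CPM in Ctrl and 35.4 and 22.4 CPM in TKO. Casp14 and Tgm3, enzymes of the cornifying cell, had 119 and 99.5 CPM against 114 and 98.4 CPM and 38.1 and 26.5 CPM against 36.5 and 37.7 CPM.

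Of 31 barrier lipid genes edgeR called 1, a share close to the 3.44% of all genes, and DESeq2 3, beside 5.33%. Both TKO libraries were higher for 15, beside 30.1% of all genes, and 9 had an unadjusted edgeR p under 0.05, beside 19.2%. Ugcg, the glucosylceramide synthase, rose from 36.3 and 31.9 CPM to 57.8 and 63.9 CPM (log2 fold change of 0.79 ± 0.13 SE with an adjusted p = 0.0388 in edgeR). Elovl4, which lengthens the fatty acids of barrier ceramides, had 567 and 508 CPM against 628 and 652 CPM, and the lipid transporter Abca12 140.4 and 117 CPM against 206 and 259 CPM, higher in both TKO libraries but not called. Fabp5, the epidermal fatty acid binding protein, had 18985 and 17024 CPM against 25522 and 27415 CPM (log2 fold change of 0.51 ± 0.11 SE with an adjusted p = 0.0683 in edgeR). Among 13 clade B serpins tested, edgeR called 3 as raised and 1 as lowered, beside 2.17% and 1.28% of all genes, and DESeq2 called 5, beside 5.33%. Both TKO libraries were higher for 8 of the 13, beside 30.1% of all genes. Serpinb3a rose from 7.78 and 1.87 CPM to 49.8 and 77.5 CPM (log2 fold change of 3.54 ± 0.53 SE with an adjusted p = 0.0303 in edgeR), Serpinb3c from 49.4 and 33.4 CPM to 110.0 and 97.4 CPM, and Serpinb11 from 0.503 and 0.197 CPM to 6.64 and 3.08 CPM. The Serpinb3 genes are near copies too. Serpinb12 was the 1 member that fell. The calls of Serpinb3a and Ugcg were lost with the replicate block, that of Ugcg also without cells high in Krt5 and Krt14. Serpinb11 lost its call with top doublet scores left out. Without either Ctrl library or at a limit of 200 the calls of Ugcg and Serpinb11 were lost, and without Ctrl replicate 2 that of Serpinb3c.

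Of 42 transcription factors of differentiation tested edgeR called 1 as raised and 4 as lowered, beside 2.17% and 1.28% of all genes, and their median log2 change was −0.30 beside 0.00 over all genes. Both TKO libraries were lower for 16 of the 42 and higher for 4, beside 21.4% and 30.1% of all genes. At an unadjusted edgeR p under 0.05 there were 18, beside 19.2% of all genes, and DESeq2 called 10, beside 5.33%. Hopx, a homeodomain protein that binds no DNA itself, had 18.2 and 15.1 CPM in the Ctrl libraries and 174 and 289 CPM in the TKO libraries (log2 fold change of 3.75 ± 0.28 SE with an adjusted p = 0.0047 in edgeR). At 5000 UMIs 7.34% and 5.78% of Ctrl cells and 40.4% and 53.4% of TKO cells had a Hopx UMI, shares above those of Krt6a in both TKO libraries. Pou3f1 (Oct6), a POU-domain factor of suprabasal cells, fell from 208 and 266 CPM to 41.7 and 60.8 CPM (log2 fold change of −2.24 ± 0.21 SE with an adjusted p = 0.00917 in edgeR), and no alternative ended either call. Satb1, a chromatin organiser, fell from 119 and 122 CPM to 61.8 and 65.4 CPM (log2 fold change of −0.97 ± 0.10 SE with an adjusted p = 0.0134 in edgeR). The nuclear receptor Rora fell from 332 and 323 CPM to 192 and 219 CPM and Tsc22d3 (GILZ), a glucocorticoid target, from 77 and 73.7 CPM to 44.8 and 44.6 CPM (edgeR adjusted p = 0.0341 and 0.0234). The last 3 lost their call without either Ctrl library, Rora also without cells high in Krt5 and Krt14, and Tsc22d3 also in the range 100 to 300 and at 5000 UMIs per cell. Klf4 had 758 and 747 CPM against 536 and 766 CPM, Grhl3 41.2 and 46.1 CPM against 48 and 41.8 CPM and Trp63 396 and 364 CPM against 198 and 325 CPM, none of them called.

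In the Notch pathway edgeR called 2 of 18 tested genes as lowered, beside 1.28% of all genes, and none as raised, with a median of −0.03. At an unadjusted p under 0.05 there were 8, beside 19.2% of all genes, and DESeq2 called 3, beside 5.33%. The ligand gene Jag2 fell from 10.2 and 10.1 CPM to 3.32 and 4.1 CPM (log2 fold change of −1.47 ± 0.24 SE with an adjusted p = 0.0341 in edgeR), and the coactivator gene Maml2 from 251 and 268 CPM to 131 and 161 CPM (log2 fold change of −0.87 ± 0.13 SE with an adjusted p = 0.0303 in edgeR). Both calls were lost without either Ctrl library, and that of Jag2 also at 5000 UMIs per cell and with top doublet scores, other lineages or cells high in Krt5 and Krt14 left out. The receptor Notch1 (196 and 222 CPM against 292 and 216 CPM) and the target Hes1 (117 and 143 CPM against 182 and 107 CPM) overlapped between the genotypes. Of 16 desmosome genes edgeR called 1, beside 3.44% of all genes, and DESeq2 2, beside 5.33%. In edgeR Dsc2, a cadherin scarce in this layer, rose from 7.05 and 5.42 CPM to 17.2 and 16.2 CPM (log2 fold change of 1.35 ± 0.22 SE with an adjusted p = 0.0343 in edgeR). This call too was lost without either Ctrl library, with top doublet scores left out and at 5000 UMIs per cell. Dsg3, the basal desmoglein, had 61.7 and 71.6 CPM against 117 and 192 CPM, higher in both TKO libraries and just short of the threshold (log2 fold change of 1.18 ± 0.24 SE with an adjusted p = 0.0594 in edgeR). The plaque protein gene Dsp had 2730.2 and 2691 CPM against 2572 and 3289.8 CPM, and the median of the list was 0.02. None of 16 gap and tight junction genes was called by edgeR or DESeq2, with 6 at an unadjusted p under 0.05 in edgeR, beside 19.2% of all genes, and a median of −0.11; Gja1 had 842 and 821 CPM against 651 and 892 CPM and Cldn1 125 and 121 CPM against 95.1 and 126 CPM.

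Of 25 basal layer genes tested edgeR called 4 as lowered, beside 1.28% of all genes, and 0 as raised, with a median of −0.75, and both TKO libraries were the lower ones for 18, beside 21.4% of all genes. At an unadjusted p under 0.05 there were 16, beside 19.2% of all genes, and DESeq2 called 6, beside 5.33%. Krt15, a basal keratin, fell from 1884 and 2947 CPM to 316 and 524 CPM (log2 fold change of −2.56 ± 0.31 SE with an adjusted p = 0.0172 in edgeR). Col17a1, the hemidesmosomal collagen, fell from 41.6 and 45.5 CPM to 14.4 and 14.4 CPM (log2 fold change of −1.64 ± 0.13 SE with an adjusted p = 0.005 in edgeR), and Dst, which encodes a hemidesmosomal plakin, from 163 and 175 CPM to 94.7 and 99.7 CPM (log2 fold change of −0.84 ± 0.10 SE with an adjusted p = 0.0182 in edgeR). Cdh3, P-cadherin, fell from 39.8 and 45.2 CPM to 21 and 23.2 CPM (log2 fold change of −0.98 ± 0.13 SE with an adjusted p = 0.0234 in edgeR). Krt5, at 1261 and 2005 CPM against 1369 and 1547 CPM, and Krt14, at 1256 and 1738 CPM against 886 and 2445 CPM, overlapped between the genotypes. With only the spinous cells under 50 Krt5 plus Krt14 UMIs per 10000, an alternative chosen after the data were seen, 223 genes were raised and 89 lowered. The change of Krt15 was then −2.69 (edgeR adjusted p = 0.00869), and those of Col17a1, Dst and Cdh3 were −1.47, −0.64 and −0.87, in the same direction but no longer called (edgeR adjusted p = 0.153, 0.101 and 0.0591). Dst and Cdh3 also lost their calls without either Ctrl library and with the replicate block. That of Cdh3 was lost as well with top doublet scores or other lineages left out and at 5000 UMIs per cell. Krt15 in immune-marker cells was 13.5 to 93.5 CPM, far under its spinous level.

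No cell cycle gene was called among 37 by edgeR at an adjusted p under 0.05, with 10 at an unadjusted p under 0.05, beside 19.2% of all genes, and 3 called by DESeq2, beside 5.33%. Their median log2 change was 0.35 and 17 of 37 were higher in both TKO libraries, beside 30.1% of all genes; Mki67 had 56 and 61.5 CPM against 73.5 and 58 CPM and Ccnb2 20.1 and 22 CPM against 49.5 and 29.7 CPM. In every library Mki67 was densest at the low end of the range, 186, 218, 135 and 124 CPM at 100 to 200 Krt1 plus Krt10 UMIs per 10000 against 16.1, 19.8, 8.2 and 21.9 CPM at 400 or more. Of 6 cell cycle inhibitors tested edgeR called 1, beside 3.44% of all genes, and DESeq2 2, beside 5.33%. Cdkn1c (p57) fell from 78.6 and 68.5 CPM to 47.1 and 39.8 CPM (log2 fold change of −0.82 ± 0.14 SE with an adjusted p = 0.0407 in edgeR), a call lost under 9 alternatives, the omission of either Ctrl library among them. Cdkn1a (p21) had 320.2 and 324 CPM against 638 and 452 CPM, higher in both TKO libraries but not called.

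**Figure D3:**
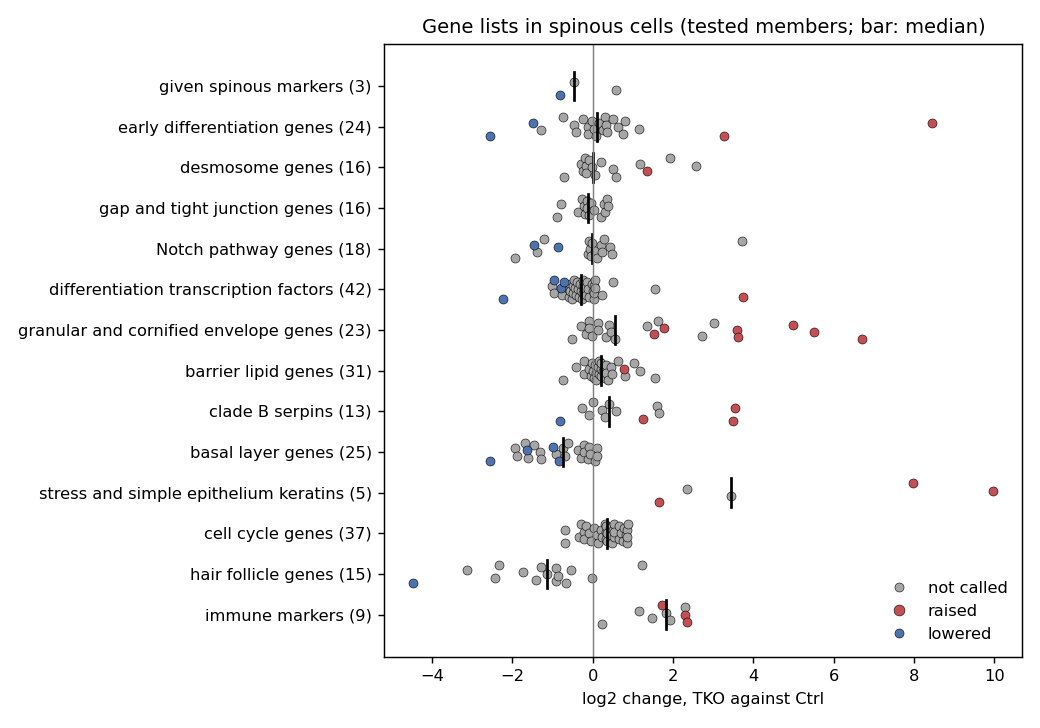
Log2 change, TKO against Ctrl, of the tested members of 14 gene lists in spinous cells (number tested in brackets, bar at the median, Krt1 and Krt10 left out). Raised genes gather in the stress keratins, the cornified envelope, the clade B serpins and the immune markers. The basal layer and the transcription factors hold 4 lowered genes each. Most members of the junction and Notch lists are grey and close to 0.

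A list of 10 genes that an earlier analysis of these same libraries had found switched on in TKO was counted per spinous cell. It is no independent evidence, and 9 of its 9 tested members were raised, beside 2.17% of all genes. At 5000 UMIs, 95.3% and 96.5% of Ctrl spinous cells had a UMI of none of the 10, against 36.8% (95% Clopper-Pearson interval 28.7 to 45.5) and 28.5% (23.7 to 33.8) of TKO spinous cells. A UMI of 2 or more of the genes was found in 0.147% and 0% of Ctrl cells and in 41.2% and 40.2% of TKO cells. The pattern was not particular to spinous cells. In TKO basal cells 34.0% and 33.0% had a UMI of 2 or more, and 31.9% and 32.4% had none. With all UMIs of the cells kept, 22.8% and 8.90% of TKO spinous cells still had none. At 5000 UMIs a UMI of Col28a1 was in 0.147% and 0% of Ctrl cells and 30.1% and 46.9% of TKO cells, and one of Gm42653 in 0% and 0.251% of Ctrl cells and 36.8% and 22.4% of TKO cells. In TKO basal cells these shares were 5.24% and 10.4% for Col28a1 and 56.4% and 47.5% for Gm42653. The Col28a1 share of 0% in Ctrl replicate 2 stands for 0 of 398 cells, which by a floor of 3 counts allows up to 0.754% of cells with a UMI at this depth (Clopper-Pearson upper limit 0.923%). With all UMIs kept 0.249% of cells in that library had one.

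Within TKO, genes differed in how they sat with this split. At 5000 UMIs, Krt6a had a UMI in 3 of 50 cells with none of the 10 genes and in 4 of 56 cells with 2 or more in TKO replicate 1, and in 20.4% of 93 and 21.4% of 131 cells in replicate 2. Sprr1b had a UMI in 34.0% and 44.6% of these cells in replicate 1 and in 74.2% and 65.6% in replicate 2. Hopx was more frequent beside the 10 genes, in 15 of 50 against 26 of 56 cells in replicate 1 and in 38.7% against 55.7% in replicate 2. Pou3f1 went the other way, in 34.0% against 10.7% in replicate 1 and in 29.0% against 17.6% in replicate 2. Serpinb12 had a UMI in 70.0% against 42.9% of cells in replicate 1 and in 63.4% against 45.8% in replicate 2. The cells with none of the 10 genes also held more Krt1 and Krt10. Krt1 had 17380 against 12950 CPM in replicate 1 and 19813 against 18188 CPM in replicate 2. Krt10 had 20100 against 14789 CPM and 20456 against 19281 CPM. The part of this in the shares above was not tested. Cells of a library are not replicates, so these shares are descriptions with no test.

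Along the Krt1 plus Krt10 range the changed genes took different courses. Krt15 declined with rising Krt1 plus Krt10 in every library, from 4499 and 7361 CPM in Ctrl and 566 and 1237 CPM in TKO at 100 to 200 per 10000 to 642 and 994 CPM in Ctrl and 81.1 and 144 CPM in TKO at 400 or more, and the TKO libraries stayed below Ctrl throughout. Hopx was at 1.64 and 2.19 CPM in Ctrl and 1.63 and 4.82 CPM in TKO in basal cells, already at 6.96 and 8.24 CPM in Ctrl and 71.1 and 72.4 CPM in TKO at 20 to 100 per 10000, and at 25 and 22.7 CPM in Ctrl and 213 and 388 CPM in TKO at 400 or more. Sprr1b reached 5.44 and 0.434 CPM in Ctrl and 118 and 176 CPM in TKO at 20 to 100 per 10000 and 168 and 81.6 CPM in Ctrl and 1221 and 1741 CPM in TKO at the top, with the TKO values at 20 to 100 overlapping those of Ctrl at the top. Pou3f1 was lower in TKO at every step, with 209 and 258 CPM in Ctrl and 29.5 and 55 CPM in TKO at 200 to 400.

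Calml3 climbed steeply in Ctrl, from 6.77 and 4.28 CPM in Ctrl and 10.9 and 0.483 CPM in TKO at 100 to 200 to 188 and 122 CPM in Ctrl and 55.6 and 26.3 CPM in TKO at 400 or more, and differed most there. Serpinb12 climbed in all libraries, and at 100 to 200 per 10000 it had 109 and 100.4 CPM in Ctrl and 99.7 and 84.5 CPM in TKO, against 572 and 506 CPM in Ctrl and 453 and 379 CPM in TKO at 400 or more. TKO was lower at each step, and fewer TKO cells lay at the top of the range; the part of that in the lower sum was not tested. Krt6a went apart between the TKO libraries at the top, with 0 and 0.347 CPM in Ctrl and 41 and 341 CPM in TKO. Dpep1, a dipeptidase, fell along the range in Ctrl and rose in TKO, from 5.67 and 4.48 CPM in Ctrl and 6.56 and 4.06 CPM in TKO in basal cells to 0.222 and 0.174 CPM in Ctrl and 95.7 and 53.2 CPM in TKO at 400 or more. In cells of 100 to 300 per 10000 alone, where the genotypes are more alike in Krt1 plus Krt10, 474 genes were raised and 395 lowered, and 196 and 139 of them were called in the whole range as well. Those cells numbered 191 and 121 in Ctrl and 81 and 112 in TKO.

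**Figure D4:**
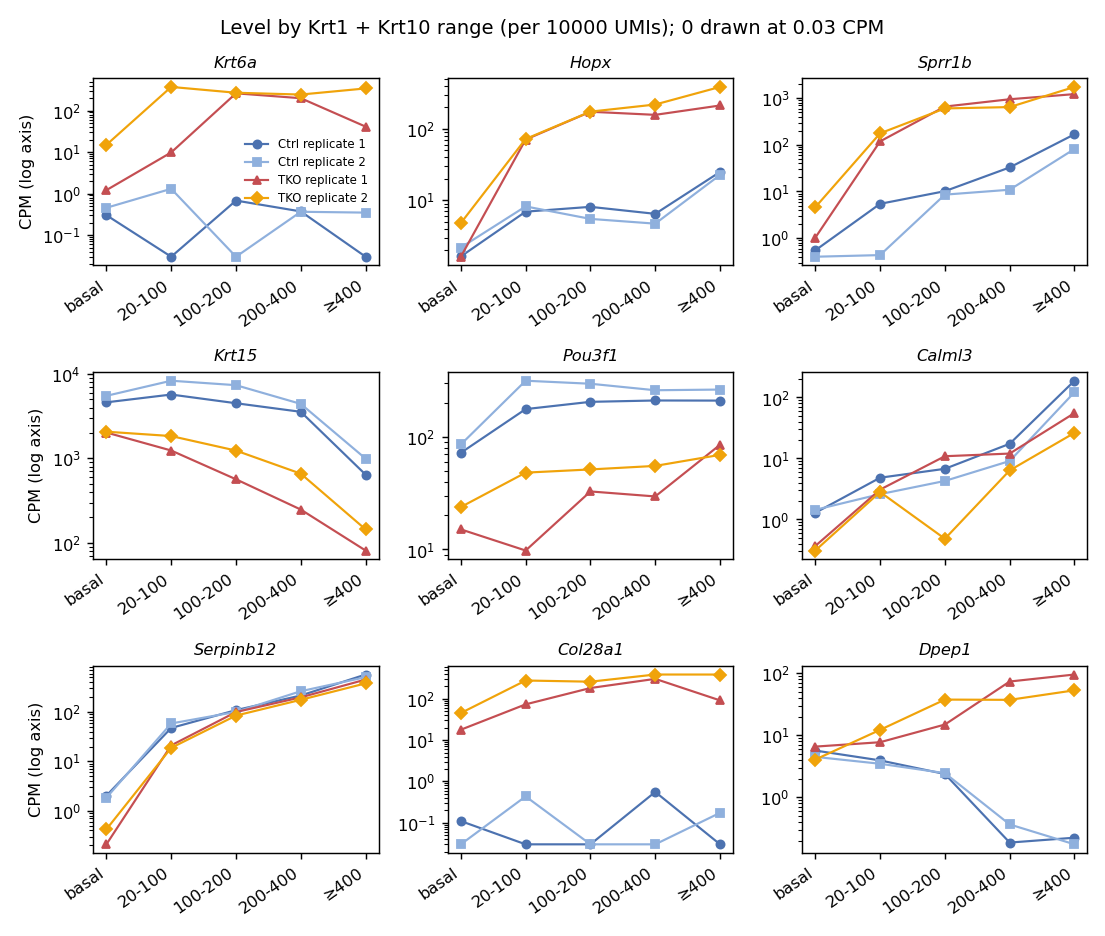
CPM (log axis, 0 drawn at 0.03) of 9 genes in basal cells and in 4 ranges of Krt1 plus Krt10 UMIs per 10000, 1 line per library. Hopx and Sprr1b part between the genotypes from the first step above basal, Krt15 and Pou3f1 are below Ctrl in TKO at every step, and Serpinb12 climbs in all libraries.

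The genotype effect was compared with that in the basal cells of the same libraries, with library as a block. The difference was called for 164 genes with a more positive effect in spinous cells, 0.877% of 18705 tested, and for 452 with a more negative one, 2.42%, together 3.29%. The split moved with the settings: the numbers were 185 and 131 without TMM factors, 150 and 143 without cells high in Krt5 and Krt14, and 167 and 97 at 5000 UMIs per cell. The median over all genes was −0.09 with the factors and 0.04 without, so differences are to be read against −0.09. Without Ctrl replicate 1 the calls were 46 in all and without Ctrl replicate 2 112, against 1338 and 1325 without TKO replicate 1 or 2.

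The largest positive difference was that of Dpep1, whose level was 5.67 and 4.48 CPM in Ctrl and 6.56 and 4.06 CPM in TKO in basal cells and 0.503 and 0.591 CPM in the Ctrl libraries and 59.2 and 44.7 CPM in the TKO libraries in spinous cells (log2 difference 6.46 ± 0.28 SE with an adjusted p = 0.000208 in edgeR). Krt6b had 0.0548 and 0.08 CPM in Ctrl and 0.0525 and 0.479 CPM in TKO in basal cells (log2 difference 6.15 ± 1.01 SE with an adjusted p = 0.0239 in edgeR) and Krt16 19.5 and 24.1 CPM in Ctrl and 2.52 and 14.6 CPM in TKO (log2 difference 4.68 ± 0.42 SE with an adjusted p = 0.00402 in edgeR). Hopx differed by 2.99 ± 0.32 SE with an adjusted p = 0.00655 in edgeR. For these 4 genes the genotype effect was more positive in spinous than in basal cells, though the change of Krt16 within spinous cells was itself not called and the Krt6b call was lost without either Ctrl library, in the range 100 to 300 and at 5000 UMIs per cell. Krt6a differed by 5.89 ± 1.87 SE with an adjusted p = 0.136 in edgeR, which was not called. Serpinb11 and C1qtnf3, the other 2 of the 5 largest, had at most 6.64 CPM in any spinous library. On the negative side, Klhdc7a, Tagln, Tnxa, H2-Eb1 and Slc26a9 were the 5 largest. Tnxa, a pseudogene, had 0.0274 and 0.0267 CPM in Ctrl and 17.9 and 18 CPM in TKO in basal and 0.412 and 0.493 CPM in the Ctrl libraries and 6.83 and 5.38 CPM in the TKO libraries in spinous cells (log2 difference −5.52 ± 0.63 SE with an adjusted p = 0.00893 in edgeR), higher in TKO in both layers, a call lost without Ctrl replicate 1, in the range 100 to 300 and at 5000 UMIs per cell. Tagln, a smooth muscle protein, had 0.246 and 0.133 CPM in Ctrl and 42.4 and 13.6 CPM in TKO in basal cells and under 1 CPM in all spinous sums.

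Of 17 desmosome genes 4 had a more positive effect in spinous cells, beside 0.877% of all genes. Dsg1a had 41.1 and 35 CPM in Ctrl and 5.25 and 15.3 CPM in TKO in basal cells and 653 and 634 CPM against 409 and 716 CPM in spinous cells (log2 difference 1.66 ± 0.19 SE with an adjusted p = 0.0092 in edgeR), and Dsg3 had 105 and 103 CPM in Ctrl and 54.7 and 111 CPM in TKO and 61.7 and 71.6 CPM against 117 and 192 CPM (log2 difference 1.46 ± 0.13 SE with an adjusted p = 0.00365 in edgeR). Dsg1b, Jup, the claudin Cldn1, occludin Ocln and the water channel Aqp3 followed, with log2 differences of 0.47 to 1.33. Those of Dsg1b, Jup, Cldn1 and Ocln were lost without either Ctrl library, and that of Dsg1a without Ctrl replicate 1. At 5000 UMIs per cell Dsg1b and Ocln lost theirs, in the range 100 to 300 Ocln, and with top doublet scores left out Jup. Aqp3 had 162 and 184 CPM in Ctrl and 62.9 and 105 CPM in TKO in basal cells and 377 and 416 CPM against 331 and 501 CPM in spinous cells. Sptlc3, a subunit of serine palmitoyltransferase, had 31.6 and 28.8 CPM in Ctrl and 7.66 and 9.04 CPM in TKO in basal cells and 248 and 208 CPM against 215 and 259.5 CPM in spinous cells (log2 difference 1.78 ± 0.11 SE with an adjusted p = 0.00219 in edgeR). For Dsg1a, Aqp3 and Sptlc3 both basal TKO levels were the lower ones and the spinous levels overlapped between genotypes. For Dsg3 the basal levels overlapped and the spinous levels were higher in TKO. Free RNA bears on some of them: Serpinb12 (log2 difference 1.72 ± 0.23 SE with an adjusted p = 0.0149 in edgeR) had 0.21 to 2.03 CPM in basal and 0.138 to 2.16 CPM in immune-marker cells, so its basal level was no more than background, and its call was lost at 5000 UMIs per cell and without Ctrl replicate 1. Dsg1a in immune-marker cells was 0.138 to 3.78 CPM and Sptlc3 0 to 1.59 CPM, under their basal levels in each library.

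Of 23 basal layer genes tested 8 had a more negative effect in spinous cells, beside 2.42% of all genes, and 6 of the 8 kept their call without TMM factors. Krt15 had 4609.9 and 5504 CPM in Ctrl and 2025 and 2071 CPM in TKO in basal cells, lower in TKO in both layers (log2 difference −1.36 ± 0.21 SE with an adjusted p = 0.0205 in edgeR). Col17a1 had 386 and 379 CPM in Ctrl and 215 and 297 CPM in TKO in basal cells (log2 difference −1.16 ± 0.15 SE with an adjusted p = 0.0125 in edgeR), and Dst 608 and 522 CPM in Ctrl and 531 and 565 CPM in TKO (log2 difference −0.88 ± 0.11 SE with an adjusted p = 0.0106 in edgeR). Jag2, lowered in spinous cells, had 94.3 and 82.5 CPM in Ctrl and 74.6 and 81.1 CPM in TKO in basal cells (log2 difference −1.37 ± 0.17 SE with an adjusted p = 0.0127 in edgeR). Fabp5 had 1785 and 1475 CPM in Ctrl and 3584 and 3411 CPM in TKO in basal cells, and 18985 and 17024 CPM against 25522 and 27415 CPM in spinous cells (log2 difference −0.68 ± 0.08 SE with an adjusted p = 0.0101 in edgeR). Without Ctrl replicate 1 the calls of Krt15, Col17a1, Jag2 and Fabp5 were lost, and without Ctrl replicate 2 those of Krt15 and Dst. With cells high in Krt5 and Krt14 left out Col17a1, Dst and Jag2 lost theirs, as Col17a1 and Jag2 did at 5000 UMIs per cell and with top doublet scores left out, and Fabp5 in the range 100 to 300.

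**Figure D5:**
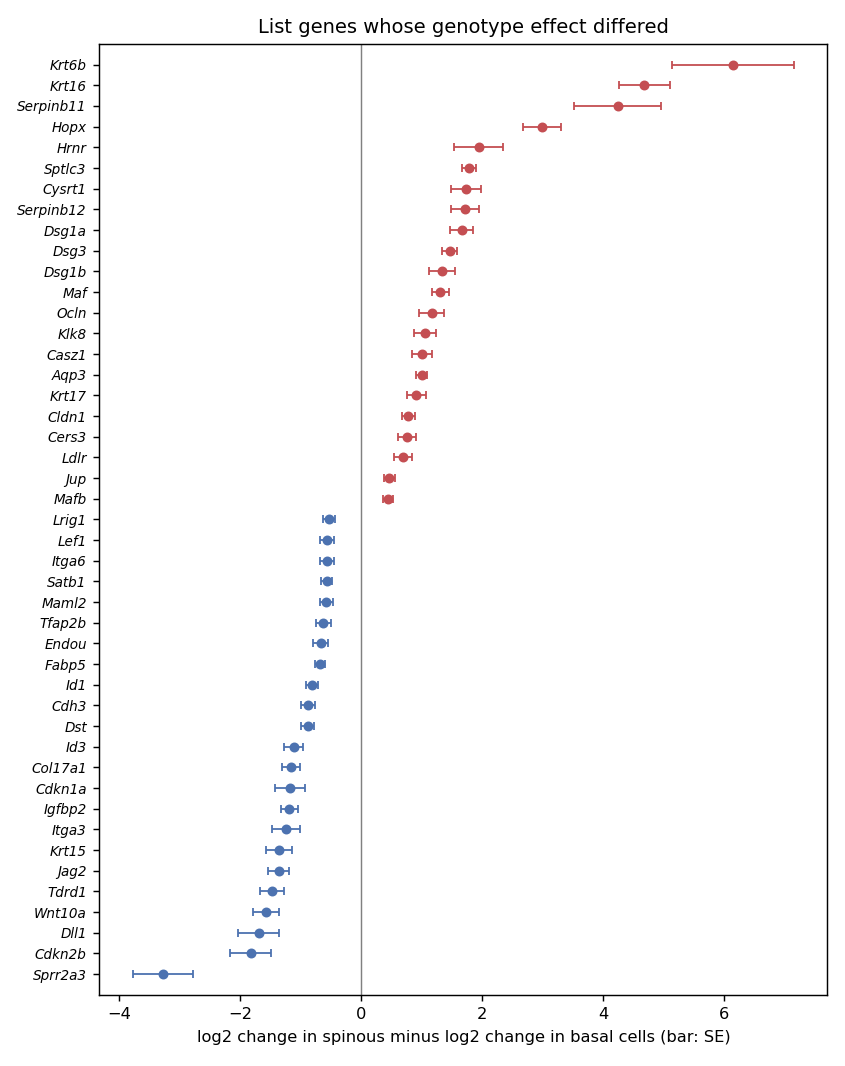
Log2 change in spinous minus log2 change in basal cells (bar: SE) for the 45 list genes whose genotype effect differed, sorted by the difference. Krt6b, Krt16, Serpinb11 and Hopx lie at the top, Sprr2a3 at the bottom.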

How the data were processed

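Single-cell RNA-seq (10x Genomics 3′ v3 kit) covered 2 Ctrl and 2 TKO embryo libraries. The authors deposited Cell Ranger matrices of raw UMI counts per gene and barcode, not normalized. Per the file headers these were written by Cell Ranger 7.1.0, and the study's methods name another version and the build GRCm39. Gene positions were taken from GENCODE vM39 (GRCm39).

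The members and gene lists were chosen with earlier results of these data known. Barcodes had at least 2000 genes and under 10% mitochondrial UMIs. Counts of spinous cells, and of basal cells for the difference between layers, were summed per library. Sums were tested with edgeR 4.0.16 (R 4.3.3), quasi-likelihood, TMM factors and the default expression filter, with genotype as the only term, at a Benjamini-Hochberg adjusted p under 0.05. The difference model had library, class and class by genotype as terms. p-values measure the spread between these single embryos. Scripts were checked on simulated data. Genes named were the 10 largest raised and lowered, the given markers and called list members, and, for the difference, the 5 largest each way and called list members; uncalled list members were added as familiar examples with their values seen. Of 101 named genes, 24 overlap another gene on the same strand, where reads can be lost or misassigned. Shares used cells thinned to 5000 UMIs. Doublets were kept: Scrublet (scanpy 1.11.5) marked 5 to 31 cells per library, and an alternative left out the top scores at 0.8% per 1000 barcodes. Loricrin was looked up under the symbol Lor.

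Alternatives covered the cell filters, the Krt1 plus Krt10 limits, doublets, other lineages, depth, scaling, the expression filter, DESeq2 1.42.0, a replicate block and each library left out. The replicate numbers did not pair the samples: deviations of same-numbered libraries from their group means correlated at −0.16 over genes.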

Additional observations from a re-analysis of the deposited data

Results flagged for a closer look

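The genotype effect differed between spinous and basal cells of the same libraries for 616 genes by the edgeR test of the difference itself (adjusted p under 0.05). The 5 largest positive log2 differences (spinous minus basal) were 6.46 for Dpep1, 6.15 for Krt6b, 5.75 for C1qtnf3, 4.68 for Krt16 and 4.24 for Serpinb11. The 5 largest negative ones were −7.45 for Klhdc7a, −5.60 for Tagln, −5.52 for Tnxa, −4.79 for H2-Eb1 and −4.25 for Slc26a9. Dpep1 and Krt16 kept their call under all 15 alternatives tried for the difference, and the others lost it under 2 to 8. C1qtnf3, Klhdc7a and Tagln had at most 18 UMIs in any spinous library. H2-Eb1 had 18.5 to 55.1 CPM in immune-marker cells, and its difference changed sign with the cells of other lineages left out.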

How the results depend on the processing

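Of the 58 named calls between genotypes, 19 held their direction and call under all of up to 18 alternatives, among them Krt6a, Krt6b, Hopx, Sprr1a, Sprr1b, Krt15, Pou3f1 and Grik4; 38 were lost under at least 1. Of the 52 named calls on the difference from basal cells, 6 held under all of up to 15 alternatives. The directions that reversed were those of Calm4 (0.96), Calml3 (0.50) and Dapl1 (1.73) in the range 100 to 300, of the Lef1 difference with top doublet scores left out (0.21) and of the H2-Eb1 difference with other lineages left out (0.20); the cause was not tested. Raised and lowered genes numbered 474 and 395 in the range 100 to 300, 199 and 110 at 5000 UMIs per cell (fewer genes tested, 9734), 1085 and 913 without expression filter, and 169 and 62 with the replicate block. Lowered genes numbered 293 with DESeq2 (450 raised), 117 without top doublet scores and 89 without cells high in Krt5 and Krt14. Leaving out single libraries gave 95 to 736 raised and 36 to 578 lowered genes. A crossed pairing, tried because the correlation was negative, gave 590 and 424. All 480 main calls were among those of the crossed pairing and 216 among those of the block. Named calls that the block ended included those of Scel, Spink5, Serpinb3a, Dsc2, Jag2, Maml2, Rora, Cdh3 and Dst. The difference from basal cells was called for 316 genes without TMM factors, 264 at 5000 UMIs, 1677 without expression filter, 376 without top doublet scores, 350 at a limit of 50, 293 without cells high in Krt5 and Krt14, and 46 to 1338 with single libraries left out. The share of keratinocytes in the spinous range differed by −12.7 to −0.30 percentage points with single libraries left out and by 0.347 in the range 100 to 300. With 2 embryos per genotype and 136 spinous cells in TKO replicate 1, the expression filter left out 43043 of 56980 genes for few UMIs. Without that filter 26940 genes were tested.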

Other observations

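Of 15 hair follicle genes tested in spinous cells edgeR called 1 as lowered, beside 1.28% of all genes, Krt79, whose Ctrl UMIs lay in few cells. DESeq2 called 1, beside 5.33%, and 10 had an unadjusted edgeR p under 0.05, beside 19.2%. The median log2 change was −1.13, and 11 of 15 were lower in both TKO libraries, beside 21.4% of all genes tested. The summed level was 274 and 273 CPM in Ctrl and 171 and 148 CPM in TKO. Wnt and Hedgehog genes in the list included Lef1 (65.3 and 80.3 CPM against 56.7 and 39.6 CPM), Ptch1 (59 and 47.3 CPM against 19.6 and 37.4 CPM) and Gli1 (3.71 and 2.37 CPM against 0.923 and 1.37 CPM), none of them called. Merkel cell genes had at most 19 UMIs in any spinous library and none could be tested.

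Immediate early and stress genes varied between libraries rather than between genotypes. Jun had 375 and 759 CPM against 1164 and 192 CPM, Fos 259 and 691 CPM against 499.8 and 175 CPM and Atf3 57.3 and 234 CPM against 137 and 22.1 CPM, with Ctrl replicate 2 and TKO replicate 1 as the 2 high libraries each time. None of 15 was called by edgeR or DESeq2 or had an unadjusted edgeR p under 0.05 (0 of 15), and none separated the genotypes. Haemoglobin genes were highest in Ctrl replicate 1, where 6 erythroid genes summed to 249.6 CPM in spinous cells against 23.6 to 38.7 CPM elsewhere.

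Melanocyte RNA in TKO replicate 1 came from very few spinous cells. Dct, a melanin synthesis enzyme, had 8 and 4 UMIs in Ctrl and 178 and 16 UMIs in TKO, and 1 cell of TKO replicate 1 held 166 of its 178 UMIs. Col1a1 had 100 and 21 UMIs in Ctrl and 16 and 398 UMIs in TKO, and the 5 richest cells of TKO replicate 2 held 95.5% of its UMIs there.

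Among the other H3K9 methyltransferase genes, Ehmt1 had 108 and 104 CPM against 83.2 and 94.1 CPM, Ehmt2 28.1 and 29.5 CPM against 28.2 and 28.9 CPM and Setdb2 7.73 and 7.69 CPM against 8.31 and 9.32 CPM, none of them called.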
